A study of Arabidopsis thaliana with 6 samples.

Results

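The small GTPase ROP1 and 5 of its activators, ROPGEF1, ROPGEF8, ROPGEF9, ROPGEF11 and ROPGEF12, were followed in RNA from closed flower buds of Arabidopsis thaliana. They were chosen by gene identifier, with earlier results of these data known. They are 6 of the 33037 features in the count table, where ROP1 carries its other name, ARAC11. ROP proteins are plant GTPases and switch a pathway on while they hold GTP and off while they hold GDP. ROPGEF proteins share a catalytic PRONE domain, which makes a ROP release GDP and take up GTP. At the tip of a pollen tube, receptor kinases of the surface recruit ROPGEFs, these load ROP1, and effectors of the RIC family pass the signal to calcium and actin, while GTPase-activating proteins and GDP dissociation inhibitors limit the active zone.

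Whole closed buds were compared between wild-type plants and naa50-1 plants, in 3 biological replicates each, as the labels and the design text state. NAA50 encodes an amino-terminal acetyltransferase. The ecotype, the bud stage and the place of the naa50-1 allele in the gene are not stated in the labels, and a bud holds many cell types at once.

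Library totals ranged from 19727584 to 20813563 counts. Across genes, log2 CPM of libraries sharing a genotype label had Pearson correlations of 0.982 to 0.99, against 0.924 to 0.951 between the labels. All 9 floral organ identity genes examined were detected, with summed levels of 1237 to 1603 CPM in the wild type and 1473 to 1836 CPM in the other group. The targeted gene went against its label. NAA50 stood at 26.3 ± 2.39 CPM in wild-type buds and reached 2678 ± 295 CPM in the libraries labelled naa50-1 (mean ± SD, n = 3 per genotype), with a fitted log2 fold change of 6.67 (its SE was 0.19; adjusted p = 6.5e-08 by edgeR's quasi-likelihood test). Directions are therefore given as those of the libraries labelled naa50-1. The rise was not limited to NAA50. AT5G11350, a gene on the same strand, shares 58 of the 1012 exonic bases of NAA50. It averaged 958 ± 151 CPM in the libraries labelled naa50-1 against 27.4 ± 1.55 CPM in wild-type buds. The edgeR fit put this difference at 5.13 log2 units (SE 0.17). What raised both genes was not tested.

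The stretch of 90 coding bases that the 5 activators shared most closely is shown first, because it makes visible how alike these genes are and where reads could still tell them apart. It lies within 1 exon in each gene. The reference is TAIR10.1 from RefSeq, with ROPGEF1 at chr4:17987020-17987109 on the plus strand, ROPGEF8 at chr3:8982355-8982444 on the minus strand, ROPGEF9 at chr4:7680497-7680586 on the plus strand, ROPGEF11 at chr1:19457336-19457425 on the minus strand, ROPGEF12 at chr1:30043707-30043796 on the minus strand. Capitals mark the 53 bases that were identical in the 5 genes.
ROPGEF1: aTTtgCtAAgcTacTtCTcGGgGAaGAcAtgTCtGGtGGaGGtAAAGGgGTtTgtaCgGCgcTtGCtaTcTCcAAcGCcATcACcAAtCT
ROPGEF8: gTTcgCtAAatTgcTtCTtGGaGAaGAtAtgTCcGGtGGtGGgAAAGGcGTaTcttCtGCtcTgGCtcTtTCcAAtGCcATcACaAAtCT
ROPGEF9: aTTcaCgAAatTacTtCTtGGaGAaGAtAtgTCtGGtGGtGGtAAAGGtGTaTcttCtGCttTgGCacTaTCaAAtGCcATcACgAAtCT
ROPGEF11: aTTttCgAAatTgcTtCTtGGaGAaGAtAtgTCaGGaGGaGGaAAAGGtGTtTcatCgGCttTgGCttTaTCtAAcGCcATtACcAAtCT
ROPGEF12: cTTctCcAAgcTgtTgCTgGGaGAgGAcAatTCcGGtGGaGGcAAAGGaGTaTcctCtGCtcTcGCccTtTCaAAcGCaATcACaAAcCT
Against ROPGEF8, the stretch was identical at 78 of 90 bases in ROPGEF9, at 71 in ROPGEF11 and at 68 in each of ROPGEF1 and ROPGEF12. Over the whole coding sequence, ROPGEF8 and ROPGEF9 were the closest pair, with 78.4% identity. The other pairs among ROPGEF8, ROPGEF9, ROPGEF11 and ROPGEF12 had 59.5% to 62.7% identity, and ROPGEF1 had 53.1% to 53.8% identity with each of the 4. The longest run of identical bases between any of the 5 was 38, between ROPGEF8 and ROPGEF12, followed by 32 between ROPGEF8 and ROPGEF9. No transcript of another gene matched ROPGEF1, ROPGEF8, ROPGEF9 or ROPGEF12 at 95% identity over 100 bases.

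Transcripts of 4 of the 6 genes, ROPGEF8, ROPGEF9, ROPGEF11 and ROPGEF12, fell in the libraries labelled naa50-1, by 5.77-fold for ROPGEF11 and by more for the other 3. Those of ROP1 and ROPGEF1 did not pass the test. Across all 21196 genes tested, 5.59% were called lower and 3.94% higher, 9.53% in either direction, at an adjusted p of 0.05 in the edgeR quasi-likelihood test. The 6 were chosen with earlier results of these data known. Of them, 4 were called lower and 0 higher, and all 6 had a negative fitted log2 fold change. Their median was -3.61, also with ROPGEF8 set at its bound, against -0.01 for all genes tested. The 2 genotypes did not overlap in CPM for the same 4 genes, as was so for 24.9% of all genes tested. In a whole bud, fewer cells of a type and less RNA per cell cannot be told apart.

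**Figure D1:**
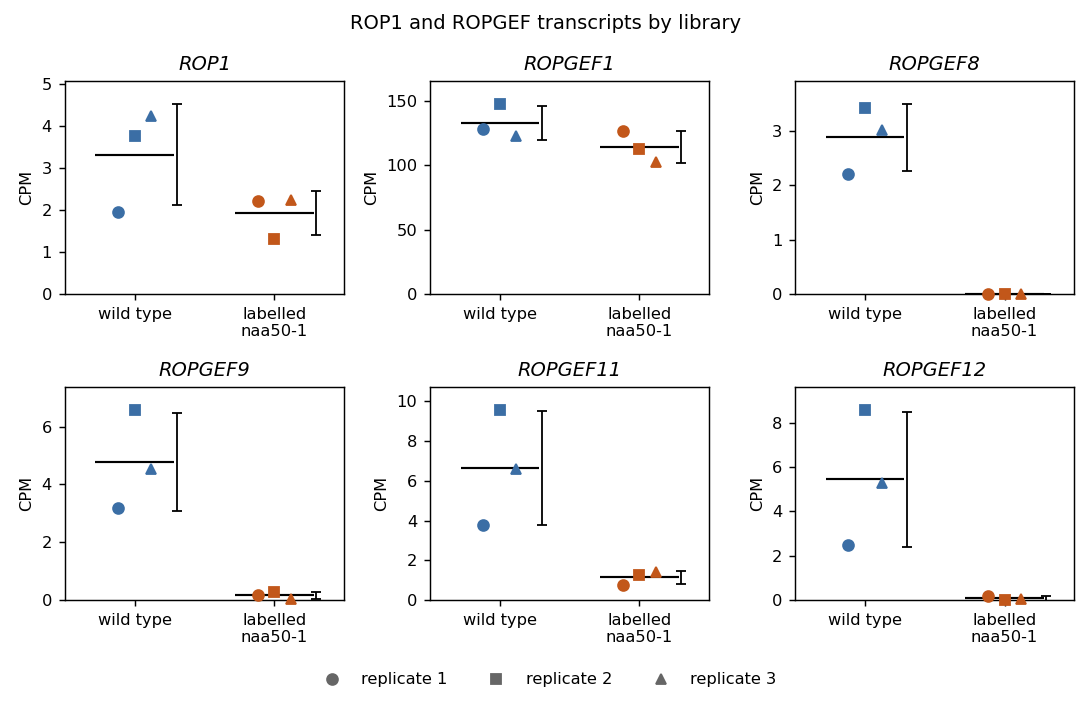
Levels of ROP1 and the 5 ROPGEF transcripts in CPM (counts scaled by TMM-adjusted library size), 1 panel per gene, each with its own vertical axis from 0. Points are libraries with the marker giving the replicate number, horizontal lines are means and bars are SD over 3 libraries. ROPGEF8, ROPGEF9, ROPGEF11 and ROPGEF12 lie near 0 or well below the wild type in the libraries labelled naa50-1, while ROP1 and ROPGEF1 overlap between genotypes.

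ROP1 is the GTPase of the module and the main ROP studied in pollen tubes. It (AT3G51300) lies on chromosome 3 (19042858 to 19044393, plus strand, 6 exons). Its counts were 39, 77 and 83 in wild-type replicates 1 to 3 and 44, 28 and 46 in the libraries labelled naa50-1. Wild-type replicate 1 lay among the libraries labelled naa50-1, so the groups overlapped. The mean was 3.31 ± 1.21 CPM in the wild-type libraries and 1.92 ± 0.52 CPM in those labelled naa50-1 (mean ± SD, n = 3 per genotype). The log2 fold change was -0.79 (SE 0.36; adjusted p = 0.275 by edgeR's quasi-likelihood test). The 95% interval of this difference ran from a wild-type level 0.986 times that of the other group to one 3.02 times as high, which holds both no change and a fall of up to that size. ROP1 also shares 651 of its 1111 exonic bases (58.6%) with AT3G51290, a longer gene on the same strand, and 63 with VPS35C on the other strand. Reads over shared bases cannot be assigned to 1 gene with certainty, and the values of ROP1 are uncertain for that reason. AT3G51290 had 38.2 ± 4.45 and 38.9 ± 6.23 CPM (log2 fold change 0.02 with adjusted p = 0.961 in edgeR).

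ROPGEF1, which in Arabidopsis pollen tubes binds ROP1 and broadens the growing tip when it is overexpressed, was the most abundant of the 6 genes. It (AT4G38430) lies on chromosome 4 (17986384 to 17988869, plus strand, 5 exons), with no overlapping gene. Its counts were 2574, 3037 and 2402 in the wild-type libraries and 2538, 2394 and 2106 in those labelled naa50-1. The highest of the latter lay among the wild-type libraries. The means were 133 ± 13.1 and 114 ± 12.3 CPM (mean ± SD, n = 3 per genotype), with a fitted log2 fold change of -0.22 (its SE was 0.12; adjusted p = 0.374 by edgeR's quasi-likelihood test). The 95% interval of the wild-type level over the other ran from 0.968 to 1.41 times, which bounds a fall of this transcript far below those of the 4 genes described next.

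ROPGEF8 and ROPGEF9 are the closest pair in sequence and are known as pollen members of the family. ROPGEF8 (AT3G24620) lies on chromosome 3 (8980400 to 8982903, minus strand, 7 exons). Its counts were 44, 70 and 59 in the wild type and 0 in each of the 3 libraries labelled naa50-1. The wild-type mean was 2.87 ± 0.616 CPM (SD, n = 3). Counted against 3 counts for the whole group as a floor, the gene was at least 58.1-fold lower in the libraries labelled naa50-1. The fitted log2 fold change of -8.87 (SE 0.76; adjusted p = 0.000193 by edgeR's quasi-likelihood test) depends on a prior count and is no measure of the size of the fall.

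ROPGEF9 (AT4G13240) lies on chromosome 4 (7679950 to 7682622, plus strand, 7 exons). Its counts were 64, 135 and 89 in the wild-type libraries and 4, 6 and 1 in those labelled naa50-1. Every wild-type library was far above each of the others. The means were 4.77 ± 1.70 and 0.177 ± 0.119 CPM (mean ± SD, n = 3 per genotype), a 26.0-fold difference with a fitted log2 fold change of -4.70 (its SE was 0.50; adjusted p = 0.000196 by edgeR's quasi-likelihood test). From the summed counts alone the ratio was 26.4, with an exact 95% interval of 14.5 to 53.4 that covers counting error only.

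ROPGEF12, which in Arabidopsis pollen tubes interacts with the receptor kinase PRK2, is AT1G79860 on chromosome 1 (30041989 to 30044297, minus strand, 5 exons). Its counts were 50, 176 and 103 in the wild-type libraries and 4, 0 and 1 in those labelled naa50-1. It had the widest spread of the 4 among wild-type libraries, yet the lowest of them was more than 10 times the highest of the others. The means were 5.44 ± 3.04 and 0.0830 ± 0.104 CPM (mean ± SD, n = 3 per genotype), with a fitted log2 fold change of -5.96 (its SE was 0.74; adjusted p = 0.000491 by edgeR's quasi-likelihood test). Most of the remaining counts came from naa50-1 replicate 1, and without that library the fitted value was -7.49. The ratio of summed counts was 66.2 (exact 95% interval 28.1 to 205).

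ROPGEF11 kept more of its transcript than the other 3. In Arabidopsis it is known from root development and phytochrome signalling as well as from pollen. It is AT1G52240 on chromosome 1 (19455495 to 19458069, minus strand, 6 exons). Its counts were 76, 196 and 129 in the wild-type libraries and 15, 27 and 29 in those labelled naa50-1. The groups did not overlap, and the spread in each was wide. The means were 6.64 ± 2.87 and 1.14 ± 0.348 CPM (mean ± SD, n = 3 per genotype), with a fitted log2 fold change of -2.53 (its SE was 0.39; adjusted p = 0.00201 by edgeR's quasi-likelihood test). The ratio of summed counts was 5.69 (exact 95% interval 4.41 to 7.43). ROPGEF11 shares 174 of its 2094 exonic bases (8.31%) with PSAH2, an abundant photosystem gene on the other strand at 298 ± 47.0 and 272 ± 39.6 CPM. The counting's strand setting is not known from the sources used, so whether reads of PSAH2 entered the counts of ROPGEF11 was not tested. ROPGEF13, its nearest relative, shares 693 of 1879 exonic bases with PSAH1 on the other strand (236 ± 48.3 and 205 ± 35.7 CPM) and had 0 counts in each of the 6 libraries.

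In the 4 genes that fell, wild-type replicate 1 was the lowest and replicate 2 the highest of the wild-type libraries. The summed level of 20 mature pollen transcripts followed the same order, at 1094, 1572 and 1197 CPM in wild-type replicates 1, 2 and 3. In the libraries labelled naa50-1 that sum was 47.6 to 53.1 CPM. All 20 were called lower, with a median log2 fold change of -6.26, or -6.02 with RBOHH and RBOHJ, which had 0 counts there, at their bounds. The 20 genes, like the other lists, were chosen with earlier results of these data known. PPME1, a pectin methylesterase of pollen, VGD1, another of them, AHA6, a plasma membrane proton pump, and STP9, a sugar transporter, had the smallest p in that list, with log2 fold changes of -8.32, -7.54, -7.18 and -5.79. That of AHA6 was -7.87 without naa50-1 replicate 3. The 4 microspore genes STP2, LBD27, BCP1 and LBD10 also fell, from a sum of 47.4 to 95.5 CPM to one of 2.72 to 3.25 CPM. STP2, a sugar transporter, had a log2 fold change of -3.38 and LBD27, a transcription factor, one of -4.93, while BCP1 went from 1538 counts over the wild-type libraries to 3 and LBD10 from 266 to 1. The 12 tapetum genes gave another picture, with 0 called in either direction and a median of -0.08. Their sums were 748, 409.9 and 515 CPM in wild-type replicates 1, 2 and 3, the reverse of the pollen order. In the libraries labelled naa50-1 the sums were 547 to 636 CPM, within that wild-type range. The wide wild-type spread limits what the 0 calls can show. BHLH089 had the smallest p among the 12 genes (log2 fold change -0.61, adjusted p = 0.0614, edgeR). It was called lower with DESeq2, with the replicate block and without wild-type replicate 2. Among 6 pistil genes, CRC was called lower (log2 fold change -0.59) and 5 did not pass. Of the 9 floral organ identity genes 0 were called, and SEP2 had the smallest p (log2 fold change 0.35, adjusted p = 0.078, edgeR). It was called higher with library totals and with DESeq2. The part of these changes in the fall of the ROPGEF transcripts was not tested.

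Each gene was next set against the summed counts of the 20 mature pollen transcripts within the same library. AHA8, a proton pump gene, held 7.86% to 8.22% of that sum in the wild-type libraries and 58.2% to 64.2% in those labelled naa50-1, so that the sum there is mostly 1 gene. The ratios were therefore also taken to the other 19 genes, an alternative chosen after the data were seen, whose sum was 1008 to 1443 CPM in the wild-type libraries and 17.1 to 22.2 CPM in the others. The direction for ROPGEF9 depended on this choice. Its log2 ratio was -8.41, -7.90 and -8.03 in the wild-type libraries and -7.78, -7.28 and -9.51 in those labelled naa50-1, a difference of -0.08 (exact two-sided permutation p = 1, also after adjustment). That value hung on naa50-1 replicate 3, which had 1 count, and was 0.58 without it. Against the 19 genes it was 1.19, again with overlapping groups (exact permutation p = 0.3, 0.36 adjusted). ROPGEF12 differed by -1.39 with overlapping groups (exact permutation p = 0.3, 0.36 adjusted over the 6 ratios). It was -2.21 without naa50-1 replicate 1, where the groups no longer overlapped, -0.61 without naa50-1 replicate 2, which had 0 counts, and -0.12 against the 19 genes. Relative to the pollen transcripts, ROPGEF11 was higher by 2.21 in the libraries labelled naa50-1, ROP1 by 3.93 and ROPGEF1 by 4.45. Against the 19 genes these were 3.47, 5.19 and 5.71. Both sums fell steeply in the libraries labelled naa50-1, so a gene with unchanged counts would also have a higher ratio there. The fitted log2 fold changes of ROPGEF11, ROP1 and ROPGEF1 themselves were -2.53, -0.79 and -0.22. ROPGEF8 differed by -2.21, or by -0.94 against the 19 genes, a value that its 0 counts and the 0.5 added to each count fix. In these 4 genes, with either sum, the groups did not overlap, and the exact permutation p was 0.1 (0.15 adjusted), the smallest that 3 libraries against 3 allow, so that the design cannot reach 0.05 here.

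**Figure D2:**
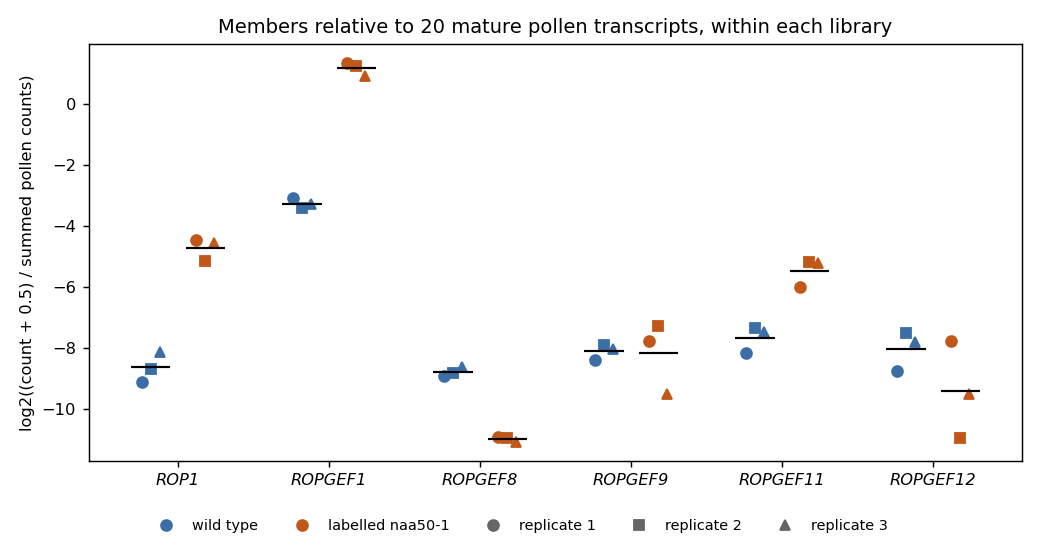
Log2 ratio of each gene's count (with 0.5 added) to the summed counts of 20 mature pollen transcripts in the same library, by gene. Points are libraries, with the marker giving the replicate number and lines the means. ROPGEF9 and ROPGEF12 overlap between genotypes, and ROPGEF8 is lower at its 0 counts. The ratios of ROP1, ROPGEF1 and ROPGEF11 are higher in the libraries labelled naa50-1, where the summed counts themselves fell.

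The activators were also set against ROP1 in the same library, since a ratio within a library does not depend on scaling. Relative to ROP1, the log2 difference between the libraries labelled naa50-1 and the wild type was -6.13 for ROPGEF8, -5.31 for ROPGEF12 and -1.72 for ROPGEF11. The log2 ratio of ROPGEF9 to ROP1 went from 0.54 ± 0.38 to -3.46 ± 1.42 (mean ± SD, n = 3 per genotype). That difference was -3.26 without naa50-1 replicate 3, which had 1 count of ROPGEF9, and -4.67 without naa50-1 replicate 2. The difference of ROPGEF12 was -6.01 without naa50-1 replicate 1 and -4.75 without naa50-1 replicate 2, whose 0 counts leave it set by the 0.5 added. For each of these the groups did not overlap and the exact permutation p was the smallest possible, 0.1 (0.125 adjusted over the 5 ratios). ROPGEF1 was higher relative to ROP1 by 0.52, with overlapping groups (exact permutation p = 0.3, also after adjustment). The value of ROPGEF8 is again set by the 0.5 added to its 0 counts, and the uncertainty of the ROP1 counts enters each ratio.

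Levels between genes were compared on the deposited FPKM, which are per length. In the wild type ROPGEF1 was far above the rest at 62.6 ± 5.84 FPKM (SD, n = 3, as for each level here). ROPGEF11 followed at 3.15 ± 1.34, ROP1 at 2.96 ± 1.07, ROPGEF12 at 2.79 ± 1.54, ROPGEF9 at 2.41 ± 0.842 and ROPGEF8 at 1.45 ± 0.301 FPKM. Each of these 5 overlapped its neighbour in that order over the 3 libraries, so that their order is not resolved. In the libraries labelled naa50-1, ROPGEF1 stood at 53.8 ± 5.75, ROP1 at 1.72 ± 0.464 and ROPGEF11 at 0.546 ± 0.167 FPKM, without overlap between neighbours. ROPGEF9 at 0.0901 ± 0.0605, ROPGEF12 at 0.0427 ± 0.0537 and ROPGEF8 at 0 in each library lay below and overlapped in turn. For ROP1, the uncertainty of its counts also bears on its place in each order.

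Within the family of 14 ROPGEF genes, ROPGEF1 alone held 49.6% ± 0.927 of the summed FPKM in the wild-type libraries and 46.9% ± 3.37 in those labelled naa50-1. ROPGEF8, ROPGEF9, ROPGEF11 and ROPGEF12 together held 4.87%, 9.89% and 8.19% in the wild-type libraries and 0.477%, 0.641% and 0.665% in those labelled naa50-1. These shares did not overlap. The family sum was 126 ± 12.4 FPKM in the wild type and 115 ± 5.19 FPKM in the other group, and most of the ROPGEF transcript in the buds of either genotype came from genes that were not called lower. ROPGEF14 was next to ROPGEF1, with 17.0% ± 1.66 and 20.5% ± 1.31. Among the 11 ROP GTPases, ROP1 had the lowest mean. It held 0.973% ± 0.308 of the summed FPKM in the wild-type libraries and 0.573% ± 0.14 in those labelled naa50-1. In the wild type its range overlapped that of ROP7 (1.76 to 3.80 against 1.77 to 5.64 FPKM), so last place is not resolved there. ROP1 and ROP7 did not overlap in the libraries labelled naa50-1. The uncertainty of the ROP1 counts enters this rank too. ROP4 was the highest, at 64.3 ± 3.39 FPKM in the wild type.

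**Figure D3:**
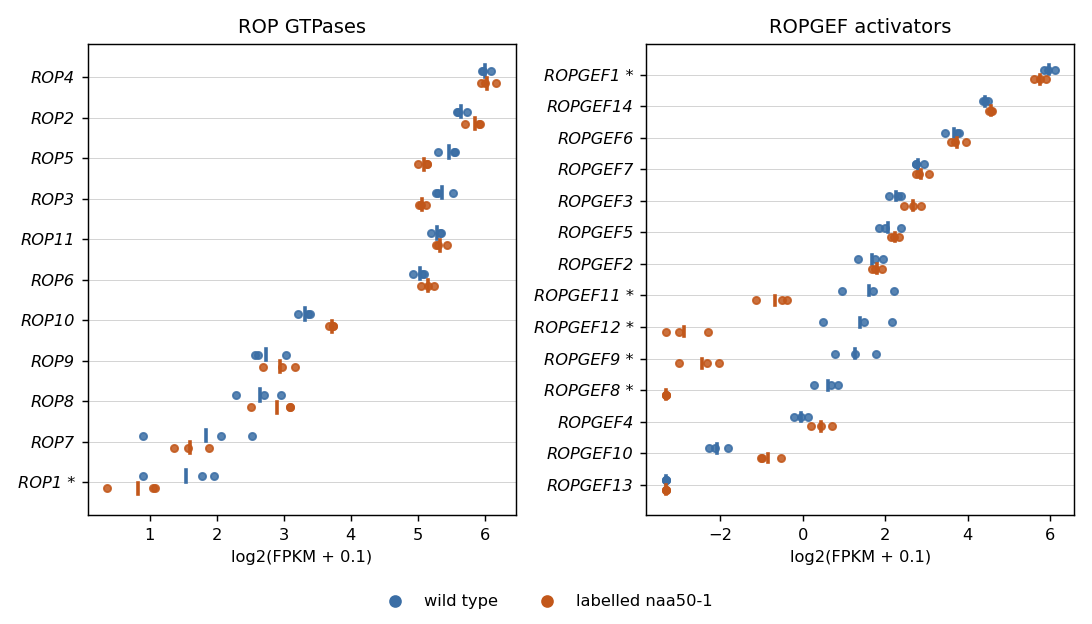
FPKM of the 11 ROP GTPases and the 14 ROPGEF activators on a log2(FPKM + 0.1) axis, ordered by wild-type mean, with ROP1 and the 5 ROPGEFs described here marked by asterisks. Points are libraries and vertical ticks are the means of the plotted log2 values. ROPGEF8, ROPGEF9, ROPGEF11 and ROPGEF12 are the rows in which the libraries labelled naa50-1 lie well below the wild type, and ROPGEF1 is the highest of its family in both genotypes.

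The remaining ROP GTPases and activators were examined as lists of 10 genes each. Of the 10 other ROP GTPases 0 were called lower and 0 higher, with a median log2 fold change of 0.08. ROP5, 84.8% identical to ROP1 in its coding sequence and like ROP1 a pollen ROP, had the smallest p. It was at 51.5 ± 5.09 and 39.6 ± 2.33 CPM (log2 fold change -0.38, SE 0.11, adjusted p = 0.0561, edgeR), and it was called lower without wild-type replicate 1 (adjusted p = 0.0321, edgeR). ROP5 shares 272 exonic bases with AT4G35940 on the other strand. Of the 10 other activators 9 were tested, with 0 lower and 1 higher and a median of 0.13. The gene that was higher was ROPGEF10, known from root hairs, at low levels. Its counts were 6, 9 and 5 in the wild-type libraries and 28, 20 and 19 in those labelled naa50-1 (log2 fold change 1.69, SE 0.42, adjusted p = 0.0331, edgeR). That call was lost when any 1 library was left out (adjusted p = 0.0503 to 0.133, edgeR). SPK1, an activator of the DOCK type with no PRONE domain, was not called (log2 fold change -0.07, adjusted p = 0.831, edgeR), and ROPGEF13, with its 0 counts, was not tested.

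Upstream of the ROPGEFs, 14 kinases were examined, most of them receptor kinases of the pollen tube. Of 13 tested, 11 fell and 0 rose, with a median log2 fold change of -3.89. PRK2, the pollen receptor kinase that binds ROPGEF12, had 406, 722 and 473 counts in the wild-type libraries and 1, 0 and 0 in those labelled naa50-1, a ratio of summed counts of 1612 with an exact 95% interval of 289 to 63697. PRK3 went from 266 counts over the wild-type libraries to 1 over the others, and PRK8 from 276 to 2. BUPS1, a receptor-like kinase that guards tube integrity, fell from counts of 429, 843 and 531 to counts of 67, 65 and 77 (log2 fold change -3.14 with adjusted p = 2.80e-05 in edgeR). PRK6, a receptor for the ovule signal LURE1, fell from 1.76 ± 0.463 to 0.113 ± 0.0996 CPM, and ANX2 was at least 167-fold lower with 0 counts in the libraries labelled naa50-1. AGC1.5, a cytosolic kinase that phosphorylates ROPGEFs in pollen tubes, fell less (log2 fold change -0.87, adjusted p = 0.00823, edgeR). ANX1 and FER, the latter a receptor kinase of many organs, were not called (log2 fold changes -0.42 and 0.12, adjusted p = 0.0849 and 0.754, edgeR). ANX1 shares 278 of its 3807 exonic bases with each of TPR10 and AT3G04700 on the other strand. TPR10 was at 25.8 ± 1.21 and 26.5 ± 4.43 CPM, and AT3G04700 was lower (log2 fold change -1.65, adjusted p = 0.033, edgeR). Whether their reads entered the counts of ANX1 was not tested. PRK6, ANX2, AGC1.5, ANX1 and FER were named after their values were seen.

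Among 11 ROP inhibitors, 3 fell and 0 rose, with a median of -0.17. RHOGDI2, a GDP dissociation inhibitor, fell from 12.6 ± 2.66 to 0.113 ± 0.0283 CPM (log2 fold change -6.72, SE 0.34, adjusted p = 1.41e-06, edgeR). RHOGDI3, another, fell from 8.02 ± 2.65 to 0.342 ± 0.197 CPM (log2 fold change -4.53). REN1, the GTPase-activating protein that confines active ROP1 to the tip of the pollen tube, fell from 20.2 ± 1.94 to 6.86 ± 0.861 CPM (log2 fold change -1.56, SE 0.15, adjusted p = 0.00011, edgeR). The 8 inhibitors that did not pass included the 5 ROPGAP genes and SCN1, a GDP dissociation inhibitor of root hairs. SCN1 had a log2 fold change of -0.30 (adjusted p = 0.0745, edgeR) and was called lower with DESeq2 and with limma on unfiltered log2(FPKM + 1).

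Among 14 ROP effectors, 5 fell and 0 rose, with a median of -0.20. RIC3, the effector that links ROP1 to calcium at the tip, fell from 4.19 ± 1.36 to 0.129 ± 0.0731 CPM (log2 fold change -4.95 with adjusted p = 9.80e-05 in edgeR). RIC6 had 0 counts in the libraries labelled naa50-1 and was at least 68.5-fold lower, and RIC5 went from 75 counts to 1. RIC1 fell from 4.99 ± 2.47 to 0.385 ± 0.162 CPM (log2 fold change -3.67), and shares 35.7% of its exonic bases with RPL28 on the other strand, which was lower too (log2 fold change -0.54, adjusted p = 0.025, edgeR). RIC4, the effector that links ROP1 to actin, was at 13.3 ± 3.33 and 12.7 ± 3.82 CPM and was not called (log2 fold change -0.06, adjusted p = 0.939, edgeR), nor were ICR1 to ICR5. Of these, ICR5 had a log2 fold change of -0.50 (adjusted p = 0.0789, edgeR) and was called lower without wild-type replicate 1. RIC7, also lower (log2 fold change -2.38), RIC4 and the ICR genes were named after their values were seen.

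**Figure D4:**
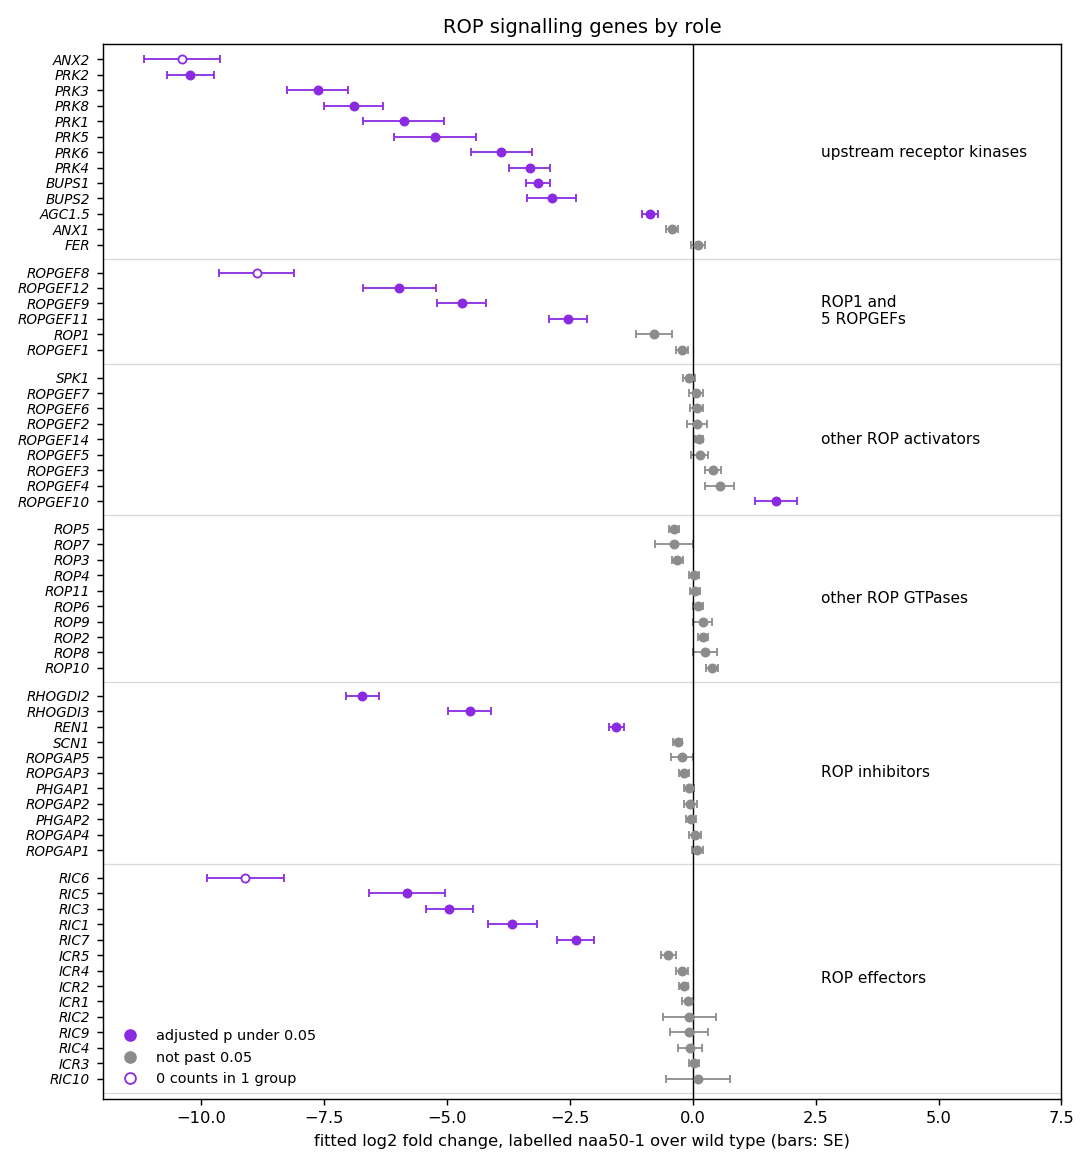
Fitted log2 fold changes of the libraries labelled naa50-1 over the wild type for ROP signalling genes, grouped by role, with bars giving the SE. Filled purple points passed an adjusted p of 0.05 in edgeR, grey points did not, and open points had 0 counts in 1 group, so that their values depend on a prior count. Calls lie to the left of 0 except for ROPGEF10.

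Because 4 of the activators moved in the same direction, the 250 bases before the annotated start of each ROPGEF gene are shown with ROPGEF1 for contrast. Coordinates in TAIR10.1 are ROPGEF1 at chr4:17986134-17986383 on the plus strand, ROPGEF8 at chr3:8982904-8983153 on the minus strand, ROPGEF9 at chr4:7679700-7679949 on the plus strand, ROPGEF11 at chr1:19458070-19458319 on the minus strand, ROPGEF12 at chr1:30044298-30044547 on the minus strand. Capitals mark AGAAA, known from tomato as an element of pollen promoters, or its reverse complement TTTCT.
ROPGEF1: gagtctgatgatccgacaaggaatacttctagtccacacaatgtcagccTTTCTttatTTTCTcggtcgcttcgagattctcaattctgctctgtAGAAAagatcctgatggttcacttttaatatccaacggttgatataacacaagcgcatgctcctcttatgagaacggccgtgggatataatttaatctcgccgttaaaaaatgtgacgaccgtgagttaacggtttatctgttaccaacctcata
ROPGEF8: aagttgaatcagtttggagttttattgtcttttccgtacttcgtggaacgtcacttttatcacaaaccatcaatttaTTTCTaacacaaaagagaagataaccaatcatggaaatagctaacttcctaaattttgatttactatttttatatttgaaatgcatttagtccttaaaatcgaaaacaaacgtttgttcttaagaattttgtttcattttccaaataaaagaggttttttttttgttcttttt
ROPGEF9: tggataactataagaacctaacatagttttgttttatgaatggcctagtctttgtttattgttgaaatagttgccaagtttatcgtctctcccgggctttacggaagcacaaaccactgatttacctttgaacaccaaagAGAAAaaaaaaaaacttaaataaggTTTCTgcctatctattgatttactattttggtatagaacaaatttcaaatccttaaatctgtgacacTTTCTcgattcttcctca
ROPGEF11: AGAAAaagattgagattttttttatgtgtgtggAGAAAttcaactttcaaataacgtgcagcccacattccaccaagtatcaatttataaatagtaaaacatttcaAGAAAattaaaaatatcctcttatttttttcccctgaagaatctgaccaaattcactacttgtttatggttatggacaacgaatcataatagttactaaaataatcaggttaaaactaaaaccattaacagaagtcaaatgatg
ROPGEF12: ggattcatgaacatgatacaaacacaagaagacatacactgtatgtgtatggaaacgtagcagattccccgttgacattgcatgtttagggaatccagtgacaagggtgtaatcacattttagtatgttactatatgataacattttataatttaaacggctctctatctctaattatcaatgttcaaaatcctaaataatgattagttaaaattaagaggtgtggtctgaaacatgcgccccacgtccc
All motifs were searched on both strands, and no match overlapped a match of another motif. AGAAA occurred 3 times upstream of ROPGEF1, 1 time upstream of ROPGEF8, 3 times upstream of each of ROPGEF9 and ROPGEF11, and 0 times upstream of ROPGEF12. Of 27443 windows of the same length before protein-coding genes, 82.5% held it. GTGA, another short element known from pollen promoters, was found 3 times in the window of ROPGEF1 and 1 or 2 times in those of the other 4, and 77.5% of all windows held it. TATAAA was found in ROPGEF8, ROPGEF11 and ROPGEF12 (47.3% of all windows). The MEF2-type CArG box, the element bound by the MIKC* factors of pollen, was not found in any of the 5 (2.15% of all windows).

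The 5 MIKC* factors themselves, MADS-box proteins that drive late pollen transcription, were the last list. Of these 3 fell and 0 rose, with a median of -1.48. AGL104 fell from 9.76 ± 2.34 to 0.293 ± 0.148 CPM (log2 fold change -5.03 with adjusted p = 1.84e-05 in edgeR), AGL66 went from 334 counts to 1, and AGL94 fell from 6.15 ± 1.63 to 2.20 ± 0.18 CPM. AGL30 and AGL65 did not pass.

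For each gene the 3 tested genes with the most similar pattern were found, by the root mean square difference over the 6 libraries of log2(CPM + 1) centred on the wild-type mean, among 20332 genes. On this scale the added 1 shrinks differences of low genes. For ROPGEF8 these were AT2G29040, SCRL23 and AT2G15340 (differences 0.0491 to 0.0594). For ROPGEF9 they were AT5G47470, CRRSP24 and AMT1-4 (0.0917 to 0.107), and for ROPGEF12 MYOB5, an unannotated feature and AT5G25340 (0.0750 to 0.108). WRKY34, AT3G52460 and AT1G47280 were nearest to ROPGEF11 (0.0862 to 0.125). These 12 genes were picked for their likeness, so that their direction follows from the choice. ROPGEF1 lay nearest to RPS26A, RPL10B and AT1G18440 (0.0275 to 0.0387), and ROP1 to AT4G18580, AT2G17880 and AT7SL-1 (0.101 to 0.124).

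In the authors' deposited table, 5.32% of genes with an adjusted p were lower at 0.05, and the same 4 of the 6 genes were among them. Its log2 fold changes were -8.32 for ROPGEF8, -6.06 for ROPGEF12, -4.74 for ROPGEF9 and -2.53 for ROPGEF11. The authors' deposited table gave -0.78 for ROP1 and -0.22 for ROPGEF1, with adjusted p-values of 0.294 and 0.455.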

How the data were processed

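RNA of closed buds was sequenced in 3 wild-type and 3 naa50-1 libraries. Per the submitters' processing notes, HISAT2 2.0.5 aligned the reads and the build was TAIR10. For the counter, the annotation release and strandedness, the answer is not given in the sources used here. The authors deposited whole-number counts per gene. The authors also deposited FPKM, which equalled counts per kilobase over a median-of-ratios size factor times 1 constant. The authors' deposited table holds a normalized signal per group, a log2 fold change and p-values; its test is not named in the sources used here. Gene bounds in the files equalled TAIR10.1 for 99.95% of 32548 matched genes.

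Groups came from the labels. Counts were scaled by TMM, filtered with filterByExpr and tested with the edgeR 4.0.16 quasi-likelihood test (R 4.3.3) on genotype alone, with Benjamini-Hochberg adjustment over 21196 genes. Values are mean CPM ± SD. Ratios within a library were compared by exact permutation with 0.5 added. A fold against 0 counts used a floor of 3 counts over the group; floors and count intervals cover counting error only. Sequences were compared with blastn 2.17.0 and MAFFT 7.526. Alternatives were other scalings and filters, DESeq2 1.42.0, limma 3.58.1 (voom, and log2(FPKM + 1) or log2(FPKM + 0.1)), a block for replicate numbers, and fits without 1 library.

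The genes and the 11 lists were chosen with earlier results of these data known. Named genes were the 6 genes, NAA50, from each list up to 4 genes with the smallest p past the threshold (the smallest p where none passed), and the 3 genes of most similar pattern; exceptions are stated.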

Additional observations from a re-analysis of the deposited data

How the results depend on the processing

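Under each of 16 alternatives 4 of the 6 genes were called lower and 0 higher. The log2 fold change of ROP1 ran from -1.06 to -0.52 (adjusted p from 0.0991 to 0.562), of ROPGEF1 from -0.29 to -0.14 (0.288 to 0.726), of ROPGEF8 from -9.03 to -1.28, of ROPGEF9 from -5.20 to -1.62, of ROPGEF11 from -2.81 to -1.38 and of ROPGEF12 from -7.49 to -1.78. For the 4 genes called lower, the smallest falls came with limma on log2(FPKM + 1), where the added 1 shrinks low levels by construction. That of ROPGEF1 came with 1 library left out. The count of all called genes, 2021, ran from 1645 without wild-type replicate 3 to 2474 with DESeq2.

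The ratio of ROPGEF9 to the pollen transcripts changed sign, to 0.14 with 1 added in place of 0.5 and 0.16 on FPKM and 1.19 without AHA8 in the sum, and ran from -0.53 to 0.58 with 1 library left out. FPKM ratios could not be computed for ROPGEF8 and ROPGEF12, which have libraries at 0. The list counts under the alternatives were added after the data were seen. The other ROP GTPases called lower ran from 0 to 1 with 1 library left out, the 1 being ROP5. Over all settings the inhibitors called lower ran from 3 to 4, the receptor kinases from 9 to 11 and the effectors from 4 to 6. The lows of 9 and 4 came with the filter of 1 CPM in 3 libraries. There 11 kinases and 11 effectors were tested, in place of 13 and 14. The count of other ROP activators called higher, 1 (ROPGEF10), was 0 with the filter of 1 CPM in 3 libraries, where ROPGEF10 was not tested, with DESeq2, with limma-voom, with limma after filtering on log2(FPKM + 1) or on log2(FPKM + 0.1), with the replicate block, and without any 1 library (0 to 0); the cause was not tested. Among 27 genes named from the lists, 413 of 430 values kept their side of the threshold, 0 reversed, 11 lost a call, each of ROPGEF10, and 6 gained one (BHLH089 in 3 settings, SEP2 in 2 and ROP5 in 1). With 0 or 1 count left, fitted values hang on single libraries: PRK2 moved from -10.21 to -12.07 without naa50-1 replicate 1.

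With the replicate number as a block, 1969 genes were called, and 4 of the 6 genes were lower and 0 higher. Same-numbered libraries deviated together at correlations of 0.0056, 0.0761 and 0.155, so the numbers were not taken as a pairing, and not every library correlated best with its own number.

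Mean levels of 2.87 to 6.64 CPM in the wild type, in 5 of the 6 genes, limit what depth can resolve: 0 counts of ROPGEF8 do not show absence.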
